A study of Mus musculus with 12 samples.

Results

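The cyclic AMP signalling genes of the mouse trigeminal ganglion were taken from a table of gene expression by their symbols. They comprised the adenylyl cyclases (Adcy plus a number), the phosphodiesterases (Pde plus a number and a letter), the regulatory and catalytic subunits of protein kinase A (Prkar and Prkac), the exchange factors Rapgef3 and Rapgef4, the G protein subunits Gnas and Gnal, and the factors Creb1 and Crem. The rule took 46 of the 51341 genes in the table: 10 adenylyl cyclases, 24 phosphodiesterases, 4 regulatory and 2 catalytic subunits of protein kinase A, and 2 members in each of the other classes. Of these, 37 reached 1 FPKM (fragments scaled by the gene's length and the size of the library) in at least 3 mice and entered the tests, beside 14203 genes in all.

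RNA was sequenced from whole trigeminal ganglia, the sensory ganglia of the face and meninges, of 12 CD1 mice, an outbred stock. The titles call 6 of them responders to PACAP, the pituitary adenylate cyclase-activating polypeptide, and 6 non-responders, and each group held 3 males and 3 females. The labels name no mutation, transgene or age, and do not say how response was scored, what time passed from PACAP to dissection, or whether mice that share a leading number in their description were littermates. The series asks whether ganglia of mice that became light-averse after PACAP differ from those of mice that did not.

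Cyclic AMP is made from ATP by adenylyl cyclases. PACAP receptors couple to the stimulatory G protein alpha subunit encoded by Gnas, which activates the membrane-bound cyclases. The nucleotide releases the catalytic subunits of protein kinase A (PKA) from its regulatory subunits, opens the Epac exchange factors, and is broken down by phosphodiesterases. PKA phosphorylates ion channels in sensory neurons and the transcription factor CREB, which binds the palindrome known as the cyclic AMP response element in many promoters.

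The RefSeq promoters of the members themselves (GRCm38.p6, 250 bases before to 50 after each start site) were searched for that element on both strands. Promoters were in the table for 35 of the 46 members, with 75 windows. Of the 35, only Prkar1a, a PKA regulatory subunit, held the full palindrome TGACGTCA, that is 2.86% of the members against 2.03% of all genes in the table. Its site lies on the plus strand at chr11:109650889-109650918, and the element starts 49 bases before a start site of the gene. The same element lies after another start site of Prkar1a, so it is not upstream of every start. It is shown with the flanking promoter bases, the element in capitals.
Prkar1a: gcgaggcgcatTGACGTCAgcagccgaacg
The shorter motif TGACG, which the full element also contains, was found on either strand in 16 of the 35 members (45.7%, against 23.0% of all genes in the table). Genes with several start sites have several windows, and per window the shares were 26.7% of the members' 75 and 20.8% of all 32851. A match describes these letters only and is not a measured binding site.

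The FPKM of a mouse summed to 286388 at the lowest and 358590 at the highest, with 12648 to 13994 genes at 1 FPKM or more. The sensory neuron markers summed to between 3455 and 7040 FPKM in every responder and between 3895 and 5937 in every non-responder, so the tissue label was met by its markers. In RNA from a whole ganglion, fewer cells of a type and less RNA per cell cannot be told apart. Other tissues were present in unequal amounts: 11 pituitary markers, of which none was under 0.1 FPKM in all mice, summed to 78199 FPKM in responder 1, to between 359.8 and 6887 in the other responders, and to between 27.4 and 1056 in non-responders. All 11 pituitary markers were higher in responders (median log2 fold change 2.52, 10 at an unadjusted p under 0.05 in limma). Fibroblast and meningeal markers summed to between 268 and 529 FPKM in responders and between 566 and 1626 in non-responders, with 7 of 8 tested markers lower in responders (median log2 fold change -0.89). Myelinating Schwann cell markers summed to between 2342 and 4514 FPKM in responders and between 4309 and 6361 in non-responders, with 9 of 10 tested markers lower in responders (median -0.55, 6 at an unadjusted p under 0.05). Non-responder 4 had the highest sums of the lists for neutrophils, at 3804 FPKM, and for smooth muscle and pericytes, at 110.7 FPKM. It was also highest for skeletal muscle (1663 FPKM), endothelium (59.9 FPKM), adipocytes (54.0 FPKM) and macrophages (14.8 FPKM).

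The ganglia carried much more message for the regulatory subunits of the kinase than for the enzymes that make or remove its activator. FPKM is scaled by length, so levels can be set side by side between genes. The 4 regulatory subunits of PKA summed to 491 ± 72.6 FPKM (mean ± SD, n = 6 mice) in responders and 478 ± 51.3 in non-responders, and the 2 catalytic subunits to 132 ± 23.7 and 124 ± 25.4. All 24 phosphodiesterases together summed to 96.9 ± 6.88 FPKM in responders and 93.6 ± 7.50 in non-responders, and all 10 adenylyl cyclases to 63.1 ± 8.75 and 58.4 ± 5.34. The spread between mice was unequal too: the coefficient of variation over the 12 mice ran from 8.06% for Prkar1a to 103% for Gnas among the 37 tested members.

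**Figure D1:**
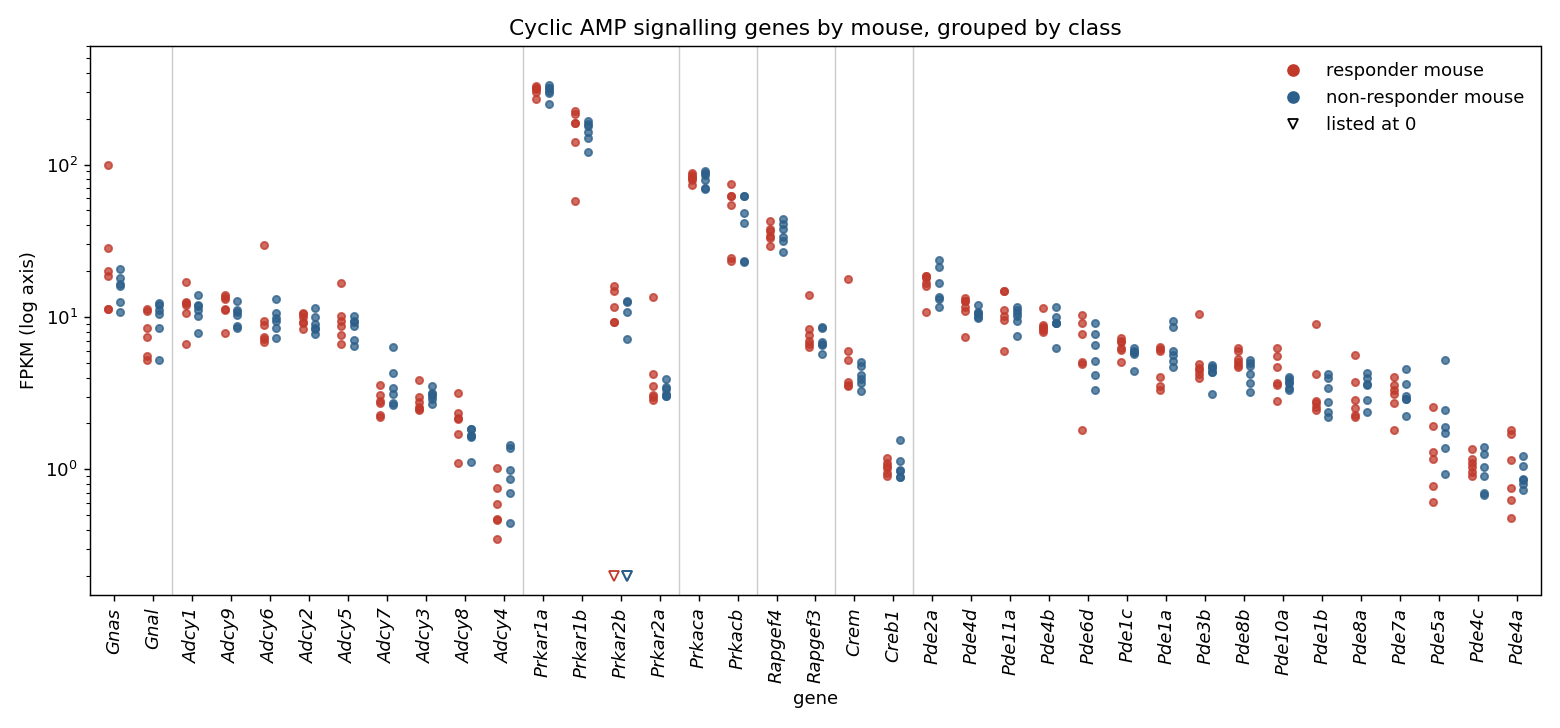
FPKM (log axis) of the 37 tested cyclic AMP signalling genes in each of 6 responders (red) and 6 non-responders (blue), grouped by class and ordered by mean level, with triangles where a gene is listed at 0. Values in single mice run from 0.347 FPKM (Adcy4) to 331 FPKM (Prkar1a) apart from the zeros of Prkar2b, the groups overlap for every gene shown, and single responders lie far above the rest for Gnas, Adcy6, Prkar2a and Crem.

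Between responders and non-responders, 0 of the 37 tested members passed an adjusted p of 0.05 in limma, where 3 of 14203 genes did (0.0211% of all tested). At an unadjusted p under 0.05 there was 1 member, Pde8b, or 2.70% of the members, against 7.40% of all genes. For 0 members did the values of the groups fail to overlap, a pattern that 0.549% of all genes showed. The fitted value was higher in responders for 26 members and lower for 11, with a median log2 fold change of 0.07 against 0.00 over all genes. By class, 6 of 9 cyclases, 11 of 16 phosphodiesterases, 3 of 4 regulatory subunits and both catalytic subunits had the higher value in responders, and class medians lay between 0.06 and 0.17. The regulatory subunits include Prkar2b, whose fit rests on zeros in 3 mice. These signs went with no call, and the smallest adjusted p among the members was 0.647.

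**Figure D2:**
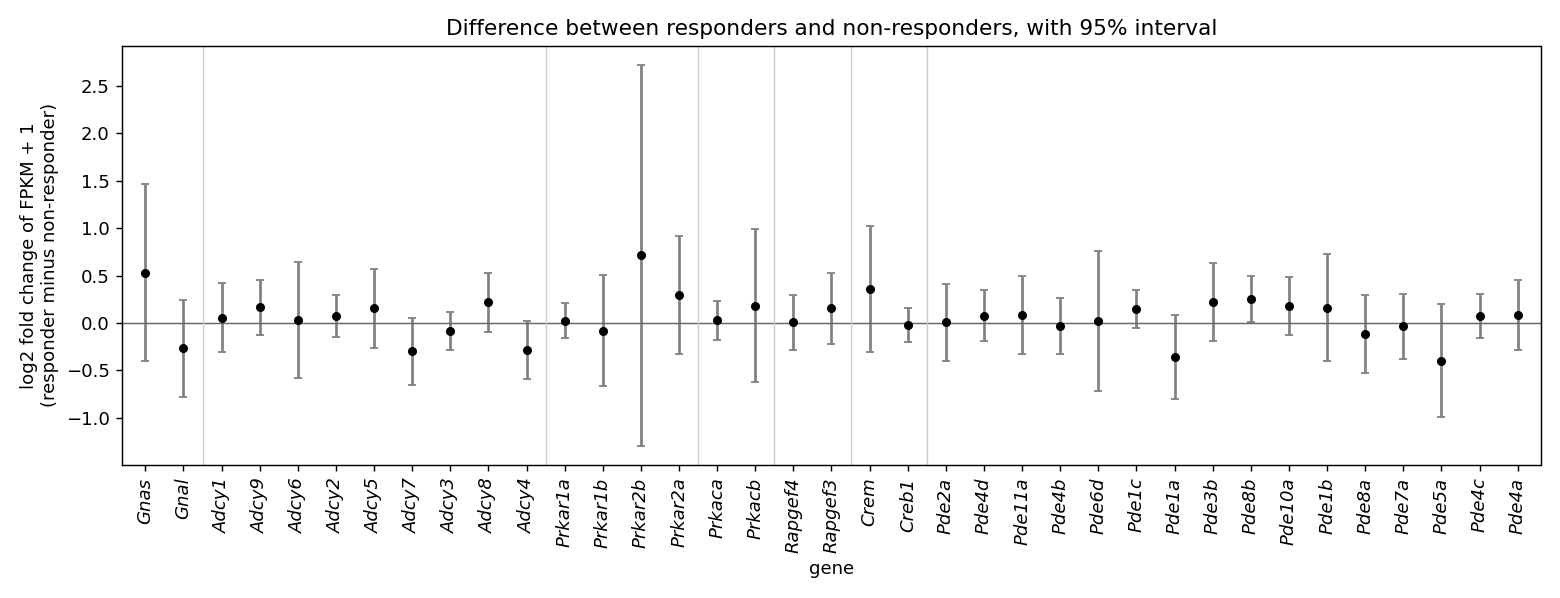
Log2 fold change of FPKM + 1 (responder minus non-responder, limma with sex as covariate) of each of the 37 tested members, with bars for the 95% interval. Pde8b alone has an interval above 0 before adjustment, and the widest intervals belong to Prkar2b, which is listed at 0 in 3 mice, and to Gnas.

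Among the G protein subunits, Gnas (chromosome 2, 174284320 to 174346744 in GRCm38), which encodes the stimulatory alpha subunit, was the more abundant in every mouse. Its FPKM was 11.2, 19.3 and 99.1 (lowest, median, highest) in responders and 10.8, 16.3 and 20.6 in non-responders. Responders 1 (99.1) and 2 (28.3) were above every non-responder, and the other 4 responders were at 19.9 or below, within the range of the non-responders. The log2 fold change was 0.53 (limma, SE 0.424, adjusted p = 0.779, 95% interval -0.40 to 1.46). Without responder 1 it was 0.13 (adjusted p = 0.854). Gnal, the alpha subunit of olfactory and striatal neurons, averaged 9.02 FPKM over the 12 mice, and its gene model shares the strand of Chmp1b (18.0 FPKM) and overlaps Mppe1 on the other strand.

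Of the adenylyl cyclases, Adcy1, which calcium and calmodulin stimulate, had the highest mean, 11.5 FPKM, but its neighbours in the order were not separated from it. Adcy1 exceeded Adcy9, at 11.1 FPKM, in 6 of 12 mice. Adcy6 and Adcy5, a pair of isoforms that calcium inhibits, averaged 10.7 and 9.20 FPKM, and Adcy2, which G protein beta-gamma subunits stimulate, 9.42 FPKM. A clear step followed, with Adcy5 above Adcy7 (3.27 FPKM) in 12 of 12 mice. Adcy3 averaged 2.96 FPKM, Adcy8 1.87 FPKM and Adcy4 0.790 FPKM. Adcy10, the soluble cyclase that bicarbonate activates, averaged 0.014 FPKM and was not tested.

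Adcy1 itself ranged over 6.68, 12.2 and 16.9 FPKM (lowest, median, highest) in responders and 7.88, 11.5 and 13.9 in non-responders, and the log2 fold change was 0.06 (limma, adjusted p = 0.949, 95% interval -0.31 to 0.43). The 3 cyclases of smallest p were all low. Adcy4 gave 0.347, 0.534 and 1.02 FPKM in responders and 0.442, 0.927 and 1.45 in non-responders, with a log2 fold change of -0.28 (SE 0.139, limma, adjusted p = 0.681), and of -0.58 with a pseudocount of 0.1. Only responder 5 and non-responders 3 and 4 reached 1 FPKM for Adcy4. It thus entered the tests mostly through the group where it was higher, at values near the filter, so its small p carries no weight. Adcy7, an isoform known from blood cells and macrophages, gave 2.22, 2.76 and 3.57 FPKM in responders and 2.63, 3.27 and 6.38 in non-responders, a log2 fold change of -0.30 (SE 0.159, limma, adjusted p = 0.704). The highest Adcy7 value was that of non-responder 4, which had the highest sums of several marker lists, neutrophils and macrophages among them. Its macrophage sum, 14.8 FPKM, was close to those of non-responder 3 (14.5), non-responder 6 (14.5) and responder 1 (14.4). In those mice Adcy7 was 2.63, 3.11 and 2.79 FPKM, and a link between Adcy7 and these lists was not tested. Without non-responder 4 the log2 fold change of Adcy7 was -0.18 (limma, adjusted p = 0.921). Adcy8, the other calmodulin-stimulated isoform of neurons, went the other way: 1.09, 2.16 and 3.16 FPKM in responders and 1.11, 1.66 and 1.85 in non-responders, a log2 fold change of 0.22 (SE 0.140, limma, adjusted p = 0.748). The groups overlapped for all 4 of these cyclases.

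The PKA regulatory subunits followed a fixed order at the top. Prkar1a (chromosome 11, 109649405 to 109669656) exceeded Prkar1b in 12 of 12 mice, and Prkar1b exceeded the others in the same way. Prkar1a made up between 56.7% and 81.9% of the class sum. Its FPKM was 269.6, 315 and 329 (lowest, median, highest) in responders and 248, 312 and 331 in non-responders, a narrow band with the groups on top of each other. The log2 fold change was 0.02 (limma, SE 0.0825, adjusted p = 0.954), and the 95% interval, -0.16 to 0.21, bounds the difference more tightly than for most members. The neuronal isoform Prkar1b averaged 167 FPKM and dropped to 57.3 FPKM in responder 6, against 120.6 FPKM or more in every other mouse.

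The type II regulatory subunits, which many anchoring proteins bind, were far lower and less even. Prkar2a gave 2.86, 3.29 and 13.6 FPKM (lowest, median, highest) in responders and 3.03, 3.23 and 3.90 in non-responders. The high value was again responder 1, and the log2 fold change of 0.29 (limma, SE 0.284, adjusted p = 0.817) became -0.0088 without that mouse. Prkar2b, the isoform of brain and fat, was listed at 0 in responder 1, non-responder 1 and non-responder 6, and between 7.17 and 15.9 FPKM in the other 9 mice. A listing of 0 between such values may be a failed estimate, so no mean is given for Prkar2b, and nothing is read from its fitted fold change, which includes the zeros. Without Prkar2b the regulatory subunits summed to 480.5 ± 68.8 FPKM (SD, n = 6) in responders and 471 ± 54.9 in non-responders, 2 of the remaining 3 had the higher value in responders (median log2 fold change 0.02), and over all classes 25 of 36 members had (median 0.06).

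Prkaca, the main catalytic subunit, was as even as Prkar1a. It gave 73.1, 82.2 and 88.5 FPKM (lowest, median, highest) in responders and 69.2, 82.1 and 91.0 in non-responders, a log2 fold change of 0.03 (limma, SE 0.0917, adjusted p = 0.955, 95% interval -0.17 to 0.23). Prkacb, the other catalytic subunit, fell into separate levels: 4 mice (responders 2 and 3, non-responders 1 and 3) lay between 23.0 and 24.2 FPKM and the other 8 between 41.1 and 74.3 FPKM. Both levels occurred in both groups, and the log2 fold change was 0.18 (limma, SE 0.368, adjusted p = 0.917, 95% interval -0.62 to 0.99). It moved between 0.0054 without responder 5 and 0.42 without responder 2, and was 0.50 with averages over mice that share a leading description number (adjusted p = 0.753). Transcript-level values, in which a change between annotated forms of Prkacb would show, were not used here.

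**Figure D3:**
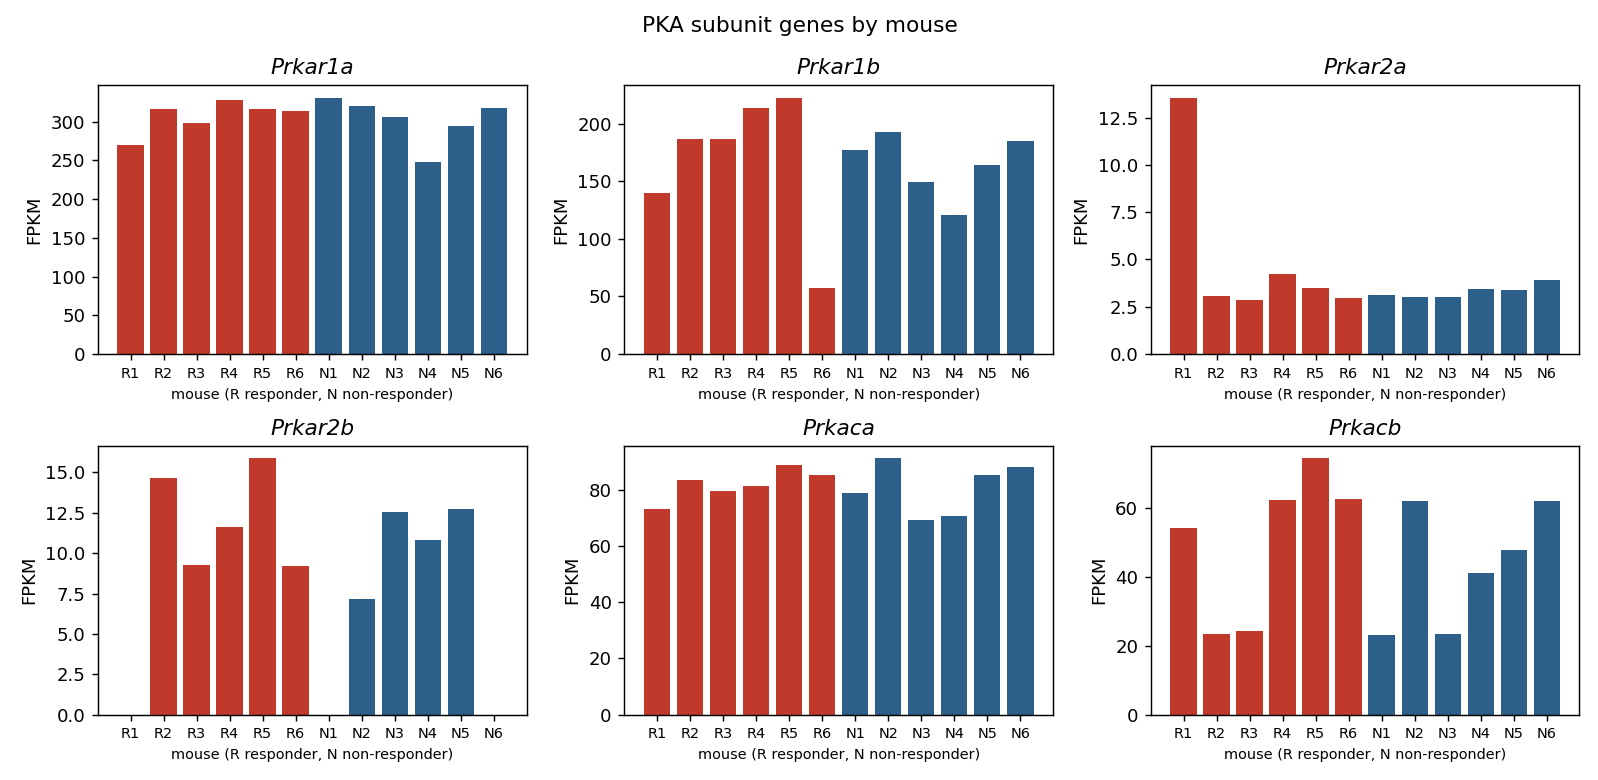
FPKM of the 6 PKA subunit genes in each mouse (bars from 0; R1 to R6 responders in red, N1 to N6 non-responders in blue). Prkar1a and Prkaca are nearly level across mice, Prkar1b is low in responder 6, Prkar2a is high in responder 1, Prkar2b is listed at 0 in 3 mice, and Prkacb sits near 23 FPKM in 4 mice.

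Of the Epac exchange factors, which activate the small G protein Rap, the neuronal Rapgef4 was higher than Rapgef3 in 12 of 12 mice. Rapgef4 gave 29.1, 35.3 and 42.6 FPKM (lowest, median, highest) in responders and 26.7, 35.5 and 43.8 in non-responders, and the log2 fold change was 0.01 (limma, adjusted p = 0.992, 95% interval -0.28 to 0.29). Rapgef3 gave 6.31, 7.26 and 13.9 FPKM in responders and 5.75, 6.77 and 8.57 in non-responders, with a log2 fold change of 0.16 (limma, adjusted p = 0.842) that was 0.0069 without responder 1. Apart from that mouse the ranges of Rapgef3 coincided.

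Crem, whose forms include activators and repressors of cyclic AMP responsive genes, was above Creb1 in all 12 mice. Its FPKM was 3.52, 4.45 and 17.7 (lowest, median, highest) in responders and 3.29, 4.04 and 5.06 in non-responders. Responder 1 held the high value, and the log2 fold change of 0.36 (limma, SE 0.303, adjusted p = 0.793, 95% interval -0.31 to 1.02) was 0.05 without it (adjusted p = 0.900). Creb1 stayed between 0.887 and 1.56 FPKM, with a log2 fold change of -0.02 (limma, adjusted p = 0.959).

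Among the phosphodiesterases, Pde2a, which cyclic GMP stimulates, was the highest on average at 16.5 FPKM and exceeded Pde4d in 12 of 12 mice. Pde4d and Pde4b, of the family specific for cyclic AMP, averaged 11.02 and 9.06 FPKM, while Pde4a and Pde4c averaged 1.00 and 1.04 FPKM. The pseudogene Rps3a3, listed at 40.9 FPKM, lies within Pde4d on the same strand, so the split of fragments between them is uncertain. Pde11a, which cleaves both cyclic nucleotides, averaged 10.5 FPKM and exceeded Pde4b in 8 of 12 mice.

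The calmodulin-dependent Pde1c, Pde1a and Pde1b averaged 6.05, 5.73 and 3.56 FPKM, and the cyclic AMP-specific Pde8b, Pde8a and Pde7a averaged 4.84, 3.32 and 3.16 FPKM. Pde6d averaged 6.25 FPKM; its product is known as a carrier of prenylated proteins and not as a catalytic subunit. Pde3b, the isoform of fat and liver, averaged 4.90 FPKM, Pde10a 4.05 FPKM and the cyclic GMP-specific Pde5a 1.83 FPKM. The 8 phosphodiesterases that were not tested included the rest of the photoreceptor family: Pde6b (0.291 FPKM) and Pde6g (0.186 FPKM), Pde6h, listed at 0 in 8 mice, Pde6c, listed at 0 in 10, and Pde6a, listed at 0 in all 12. Pde7b (0.685 FPKM), Pde9a (0.641 FPKM) and Pde3a (0.506 FPKM) completed the untested members.

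Pde2a gave 10.8, 17.4 and 18.6 FPKM (lowest, median, highest) in responders and 11.7, 15.2 and 23.5 in non-responders, and the log2 fold change was 0.01 (limma, SE 0.186, adjusted p = 0.993). Pde8b (chromosome 13, 95024454 to 95250336), a high-affinity cyclic AMP phosphodiesterase, had the smallest p of all members. It gave 4.66, 5.17 and 6.24 FPKM in responders and 3.21, 4.47 and 5.22 in non-responders, so most responders lay in the upper part of the range but the groups overlapped. The log2 fold change was 0.26 (limma, SE 0.112, 95% interval 0.01 to 0.50), with an unadjusted p of 0.0418 and an adjusted p of 0.647. It was 0.17 without non-responder 4 and 0.15 without responder 1 and non-responder 4 together, and in 5 of the 12 fits that left out a mouse 0 members had an unadjusted p under 0.05. An antisense gene, Gm48420 (1.45 FPKM), overlaps Pde8b, and the sources do not say whether counting was by strand.

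The other members of smallest p in the class were both calmodulin-dependent and had opposite signs. Pde1a gave 3.33, 5.00 and 6.38 FPKM (lowest, median, highest) in responders and 4.70, 5.77 and 9.38 in non-responders, a log2 fold change of -0.36 (limma, SE 0.201, adjusted p = 0.726). Pde1c gave 5.03, 6.58 and 7.32 FPKM in responders and 4.39, 5.90 and 6.25 in non-responders, a log2 fold change of 0.15 (limma, SE 0.0915, adjusted p = 0.737). The values of both genes overlapped between the groups.

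Within the sexes, each with 3 mice against 3, 0 members were called in males (limma; 0.0141% of all genes were called) or in females (0.00704%). At an unadjusted p under 0.05 there were 2 members in males, or 5.41% against 6.78% of all genes, and 3 in females, or 8.11% against 6.81%. The difference between the sexes in the response was itself called for 0 members (0% of all genes), and 2 members, Pde2a and Pde4d, had an unadjusted p under 0.05, as had 5.01% of all genes. Between females and males, 0 members were called, against 0.0563% of all genes, and 0 had an unadjusted p under 0.05, against 4.53%.

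Pde2a split most by sex. In females it was 18.4 ± 0.364 FPKM (SD, n = 3) in responders and 12.8 ± 0.990 in non-responders. In males it was 14.5 ± 3.26 FPKM in responders and 20.5 ± 3.45 in non-responders, with values that overlapped. In females the groups of 3 did not overlap for Pde2a, nor for Adcy2, Adcy9, Pde1c, Pde4d and Prkar1b. In males they did not overlap for Adcy7 and Pde4b. The share of all genes with this pattern was not computed in either sex, so nothing is read from it. For Pde2a the difference of the log2 fold changes, females minus males, was 0.97 (limma, SE 0.243, unadjusted p = 0.00237, adjusted p = 0.836). Over the alternatives the adjusted p of that difference ran from 0.0122, with array weights, to 0.9999, so the opposite directions of Pde2a did not pass the threshold in the fit reported. No leading description number occurs in both sexes, so what it marks and this split cannot be told apart.

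Pde4d showed a smaller split of the same kind. In females it was 12.9 ± 0.380 FPKM (SD, n = 3) in responders and 10.1 ± 0.326 in non-responders, and in males 9.94 ± 2.20 and 11.1 ± 0.800. The difference of the log2 fold changes was 0.50 (limma, SE 0.204, adjusted p = 0.836), and 0.32 without responder 1. Responder 1, a male, held the lowest value of the 12 mice for both Pde2a and Pde4d, and non-responder 4, also a male, the highest for Pde2a. Adcy7 in males was 2.70 ± 0.442 FPKM (SD, n = 3) in responders and 4.71 ± 1.51 in non-responders, a log2 fold change of -0.60 (limma, adjusted p = 0.700), and in females 2.86 ± 0.657 and 2.83 ± 0.254. Pde1a in females was 4.26 ± 1.45 FPKM (SD, n = 3) in responders and 7.56 ± 2.50 in non-responders, a log2 fold change of -0.69 (limma, adjusted p = 0.707), and in males 5.52 ± 1.28 and 5.56 ± 0.414, a log2 fold change of -0.03 (adjusted p = 0.987).

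**Figure D4:**
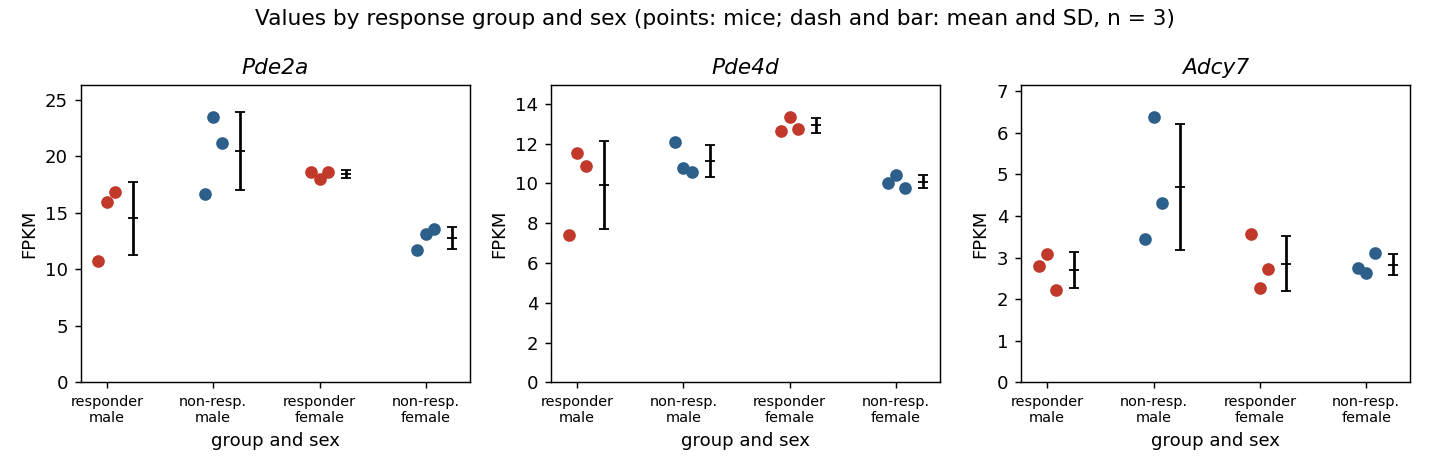
FPKM of Pde2a, Pde4d and Adcy7 by response group and sex (points are mice, dash and bar the mean and SD of 3). Female responders lie above female non-responders for Pde2a and Pde4d, male responders average below male non-responders for all 3 genes, and no difference passed the adjusted threshold.

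Responder 1, the mouse with the most pituitary message, held the highest value of the 12 mice for 10 of the 37 tested members (27.0%, against 24.4% of all tested genes) and the lowest for 7 (18.9% against 19.9%). Its share of extremes was therefore near that of the whole table, and which members they were is given as a description. Highest in it were Gnas, at 5.99 times the median of the other 11 mice, Crem (4.52 times), Prkar2a (4.37 times), Adcy6 (3.37 times), Pde3b (2.34 times), Rapgef3 (2.03 times), Pde8a (1.96 times), Adcy5 (1.92 times), Pde10a (1.69 times) and Pde8b. Lowest in it were Adcy1, Adcy8, Adcy9, Pde2a, Pde4d, Pde11a and Prkar2b. For Gnas the other 5 responders averaged 17.9 ± 7.11 FPKM and the non-responders 15.8 ± 3.56. For Adcy6 they averaged 7.91 ± 1.13 FPKM, below the 9.79 ± 2.01 of the non-responders, and for Crem 4.40 ± 1.14 against 4.15 ± 0.667. With responder 1 left out, 0 members were called.

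**Figure D5:**
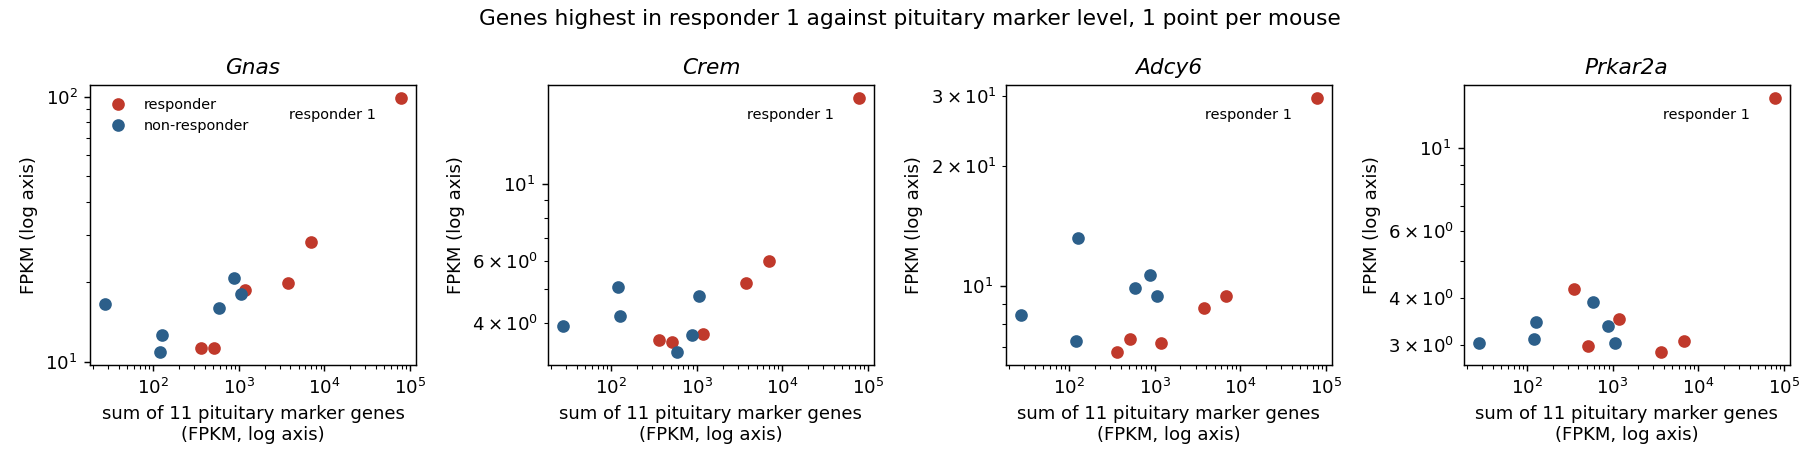
FPKM of Gnas, Crem, Adcy6 and Prkar2a (log axes) against the summed FPKM of 11 pituitary markers, with 1 point per mouse (responders red, non-responders blue). Responder 1, at 78199 FPKM of pituitary markers, has the highest value of each gene, and the other 11 mice lie below it. Responders 2 (6887 FPKM), 3 (3727 FPKM) and 5 (1181 FPKM) also exceed every non-responder (at most 1056 FPKM) in pituitary markers.

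Members were also set against the mean log2 level of marker lists across the 12 mice, in 148 pairs of a member and a list (permutation tests with 100000 resamples, adjusted over the pairs). Values of r passed for 8 pairs: 5 with sensory neuron markers, 2 with pituitary markers, 1 with fibroblast markers and 0 with myelinating Schwann cell markers. Of these 8, Adcy2 with sensory neurons passed by Spearman's rho as well. Prkar1b with sensory neurons passed by rho (0.89, permutation, adjusted p = 0.0192) but not by r (0.48, adjusted 0.389). For Adcy2, r was 0.86 (permutation p = 0.00029, adjusted 0.0163) and rho 0.90 (adjusted 0.0192), with r of 0.87 in responders and 0.86 in non-responders, and 0.80 without the 2 mice farthest from the median of the list.

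With the same neuronal list, Adcy9 gave r = 0.80 (permutation, adjusted p = 0.0419; rho 0.80, adjusted 0.0634), Pde1c 0.81 (adjusted 0.0419; rho 0.66, adjusted 0.278) and Prkaca 0.78 (adjusted 0.0451; rho 0.63, adjusted 0.319). Without the 2 farthest mice these were 0.71, 0.55 and 0.68. Pde5a, a phosphodiesterase of vascular smooth muscle, was the one that fell as neuronal markers rose, at r = -0.91 (permutation, adjusted p = 0.0074, rho -0.82, adjusted 0.0634). Without the 2 farthest mice its r was -0.83. Its highest value, 5.23 FPKM, was in non-responder 4, where the smooth muscle markers and several other non-neuronal lists were also highest. In responders and non-responders apart, these 4 pairs kept their sign, with r from 0.63 to 0.91 for the positive ones and of -0.82 and -0.96 for Pde5a.

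Pde8b was the member that ran against the fibroblast list, at r = -0.79 (permutation, adjusted p = 0.0419; rho -0.83, adjusted 0.0634). Within responders r was -0.58, within non-responders -0.67, and without the 2 farthest mice -0.59. Since fibroblast markers were lower in every responder than in every non-responder by their sum, Pde8b and the fibroblast list differ between the groups together, and the part of the fibroblasts in the Pde8b value was not tested. With the pituitary list, Gnas gave r = 0.91 (permutation, adjusted p = 0.0163; rho 0.80, adjusted 0.0634) and Pde10a 0.88 (adjusted 0.0174; rho 0.59, adjusted 0.397). Without responders 1 and 2 these were 0.57 and 0.52, and r within responders and within non-responders was 0.97 and 0.61 for Gnas and 0.95 and -0.0019 for Pde10a.

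The neighbours of the pathway were read from fixed lists, and 0 of their genes were called between responders and non-responders in limma, where 0.0211% of all genes were. Upstream, 8 of 18 receptors that couple to the stimulatory G protein were tested, 5 higher and 3 lower in responders (median log2 fold change 0.05). The PACAP receptors Adcyap1r1, Vipr1 and Vipr2 were too low to be tested. They averaged 0.678, 0.083 and 0.641 FPKM in responders and 0.703, 0.224 and 0.545 FPKM in non-responders. The adenosine receptor Adora2a had the smallest p, at 1.98 ± 0.347 FPKM in responders and 2.42 ± 0.477 in non-responders (log2 fold change -0.20, limma, adjusted p = 0.733). All 5 inhibitory alpha subunits were tested, 3 higher and 2 lower (median 0.05), led by Gnai1 at 59.3 ± 9.48 FPKM against 65.4 ± 9.24.

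Of 14 A-kinase anchoring proteins, which tether PKA to membranes and organelles, 10 were tested, 9 higher and 1 lower in responders, with 0 at an unadjusted p under 0.05 and a median of 0.09. Akap10 had the smallest p, at 11.4 ± 1.44 FPKM against 10.4 ± 0.761 (log2 fold change 0.12, limma, adjusted p = 0.768). Of 11 tested CREB target genes, 6 were higher and 5 lower (median 0.03), and the prohormone convertase Pcsk1 led with 22.5 ± 5.02 FPKM against 18.5 ± 2.48 (adjusted p = 0.718). Among 5 tested coactivators and relatives of CREB, 2 had the higher and 3 the lower value: Crtc3 was 7.18 ± 0.655 FPKM in responders and 8.66 ± 0.912 in non-responders (log2 fold change -0.24, limma, adjusted p = 0.602), and Crtc1, the form of neurons, 10.6 ± 1.24 and 8.82 ± 1.23 (0.24, adjusted p = 0.668).

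The PKA inhibitor peptides gave the smallest p of any list. Pkib read 0.937, 1.45 and 1.99 FPKM (lowest, median, highest) in responders and 0.357, 0.531 and 1.67 in non-responders. Of the non-responders, 5 were below every responder, and non-responder 1 was within the responders' range. Only that non-responder reached the filter of 1 FPKM, as did every responder but responder 4. Pkib thus entered the tests through the group where it was higher, at values near the filter, so its small p carries no weight. The log2 fold change was 0.60 (limma, SE 0.167, unadjusted p = 0.00419, adjusted p = 0.445), and 1.15 with a pseudocount of 0.1 (adjusted p = 0.454). The other inhibitors had the opposite sign, Pkia at -0.40 (adjusted p = 0.678) and Pkig at -0.47 (adjusted p = 0.688). Of the 2 tested Popeye proteins, which bind cyclic AMP, Bves was 1.40 ± 0.270 FPKM in responders and 1.85 ± 0.322 in non-responders (log2 fold change -0.25, limma, adjusted p = 0.641). The 5 tested guanylyl cyclases and cyclic GMP kinases were 2 higher and 3 lower, with a median of -0.04.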

How the data were processed

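The submitters' processing notes name the aligner STAR (2.6.0a), the assembler StringTie (1.3.5) and the GRCm38 or mm10 build; settings and annotation release: not given in the sources used here. In the table that the authors deposited there is 1 value per Ensembl gene and mouse. The header of the deposited table does not name the unit, which was taken as FPKM because totals differ between mice. Only 13.1% to 40.2% of the values of single-exon genes came within 0.05 of whole multiples of a step, so whole fragments were not recovered, the depth behind each value is unknown, and no counting intervals are given. Symbols came from GENCODE M21, which held 51076 of the identifiers.

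The test was limma (3.58.1, R 4.3.3) on log2(FPKM + 1) of the 14203 genes that reached 1 FPKM in 3 or more mice, with sex as covariate (9 residual degrees of freedom). The response within each sex and its difference between the sexes came from a fit of 4 cell means. Females and males were compared in the fit with response group and sex. Adjusted p values are 2-sided Benjamini-Hochberg values over all genes tested, threshold 0.05. Fold changes on this scale understate those of low genes. The procedure was tested on simulated data.

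The members, lists and alternatives were chosen with earlier results of these data known. Named with values per group are, in each class, the member of highest mean and those of smallest p (up to 3 for cyclases and phosphodiesterases, 1 for the others), and up to 2 genes of each neighbouring list. The genes singled out for responder 1, the sexes, Prkacb, Prkar1b, Prkar2b and the other PKA inhibitors were chosen after their values were seen. Alternatives varied the pseudocount, filter, scaling, variance model, sample weights, covariates, blocks and mice.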

Additional observations from a re-analysis of the deposited data

Results flagged for a closer look

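A single mouse stood apart from the other 5 of its group in 14 of the 74 sets of 6 values examined (37 members in each group), by the gap to the nearest value divided by the whole range (above Dixon's 95% critical value). Chance flags about 1 in 20 groups. Over all 14203 tested genes the same rule marked 17.0% of the sets, close to the 18.9% of the members, with 46.0% of those marks in responder 1 and 24.4% in non-responder 4. Responder 1, which had the most pituitary marker message, accounted for 8 of them. It was highest for Gnas at 99.1 FPKM (the other responders 11.2 to 28.3), Adcy6 at 29.6 (6.80 to 9.40), Crem at 17.7 (3.52 to 6.01), Adcy5 at 16.8 (6.68 to 10.1), Rapgef3 at 13.9 (6.31 to 8.28), Prkar2a at 13.6 (2.86 to 4.22) and Pde3b at 10.5 (3.97 to 4.88), and lowest for Pde2a at 10.8 (15.9 to 18.6).

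Non-responder 4, which had the highest sums of several non-neuronal marker lists, accounted for 4. It was highest for Pde5a at 5.23 FPKM (the other non-responders 0.930 to 2.44) and lowest for Pde1c at 4.39 (5.67 to 6.25), Pde3b at 3.12 (4.33 to 4.83) and Adcy8 at 1.11 (1.62 to 1.85). Responder 3 was highest for Pde4b at 11.4 FPKM (7.96 to 8.89) and for the calmodulin-dependent Pde1b at 8.96 (2.45 to 4.23).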

How the results depend on the processing

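Of all genes, 3 were called between responders and non-responders, 1 with the title number as a replicate block, 1 with averages over mice that share a leading description number, and between 2 and 6 with each mouse left out in turn (5 without responder 2, 6 without responder 5 and 6 without responder 6). The title numbers are not stated to pair mice, and same-numbered mice did not deviate together (correlations from -0.27 to 0.13); with the replicate block 0 members were called. Members called stayed at 0 in every comparison with any 1 mouse left out. Array weights called 13 members in males and 1 in the response by sex (Pde2a, log2 0.89, adjusted p = 0.0122), that is 35.1% and 2.70% of the members, but in that fit, whose weights stopped before convergence, 5787 of 14203 genes (40.7%) were called in males and 508 (3.58%) in the response by sex. Of 26 fold changes of named genes, 20 kept their sign throughout, and 22 of their 619 values under alternatives had the other sign. Scaling mice to the same total gave -0.0039 for Rapgef4 and -0.0011 for Pde2a, and the leading description number as a random block gave -0.014 for Pde2a. Leaving out each mouse gave -0.0088 to 0.41 for Prkar2a, -0.071 to 0.083 for Rapgef4, -0.025 to 0.18 for Adcy1, -0.073 to 0.14 for Pde2a, -0.018 to 0.067 for Prkaca and -0.025 to 0.057 for Prkar1a, and, with no change of sign, 0.14 (without responder 3) to 0.31 for Adcy8, 0.075 (without responder 2) to 0.17 for Akap10, -0.22 to -0.059 (without responder 1) for Gnai1, -0.25 to -0.12 (without responder 1) for Adora2a and 0.14 (without responder 1) to 0.31 for Pcsk1. Without responder 1 and non-responder 4 together, an alternative chosen after seeing the data, Rapgef4 was at -0.017 and Gnas at 0.06. Members with the higher value in responders numbered between 22 and 27 of 37, and those at an unadjusted p under 0.05 between 0 and 4, with each mouse left out. The leading description number never occurs in both groups or in both sexes, so what it marks cannot be told apart from the response or from sex.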
